A study of Mus musculus with 8 samples.

Results

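The forkhead genes were followed as a family through vascular smooth muscle cells that lacked E12 or E47. Members were the entries of the count table named Fox with a letter from a to s, a number and at most a further letter, with Foxm1 left out. This gave 43 of the 55353 entries. All 43 had a position in GENCODE M21 (GRCm38). The cells came from the mouse aorta and formed an E12 pair and an E47 pair of genotypes, each a wild type (WT) and a knockout (KO), with 2 libraries of polyA RNA for each genotype and 8 in all. E12 and E47 are protein isoforms of the basic helix-loop-helix factor E2A, both made from Tcf3. They were primary cells thawed from frozen stocks and lysed in the dish, and the labels give no agent, age or strain. The pair of libraries of a genotype are separate extractions. Separate cultures or mice are not mentioned, so p-values rest on differences between extractions alone, possibly only technical.

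Forkhead proteins share a winged-helix domain that binds DNA. FOXO proteins are held out of the nucleus when insulin and growth factor signalling through AKT is active, and otherwise switch on genes of cell cycle arrest, stress resistance and metabolism. FOXC, FOXF, FOXD, FOXL and FOXS genes are mostly mesenchymal and vascular, and FOXF genes respond to Hedgehog signals in visceral mesenchyme. FOXA genes encode pioneer factors best known from endoderm, and FOXJ1 is known from motile cilia. FOXK, FOXP, FOXN and the other FOXJ genes are widely expressed.

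Promoter sequence was taken from RefSeq for 4 of the genes on which the main contrasts turn, because E proteins bind E boxes of the form CANNTG. Foxf2 was higher in both knockouts, Foxd1 moved in opposite directions, Foxo1 was lower in both and Foxa2 differed in the E47 lines. Each stretch ends at the base before the annotated start and reads 5′ to 3′ on the gene's strand, with E boxes in capitals. In GRCm38.p6 these are chr13:31625566-31625815 (plus strand) for Foxf2, chr13:98353995-98354241 (plus) for Foxd1, chr3:52268087-52268335 (plus) for Foxo1 and chr2:148046970-148047219 (minus) for Foxa2.
Foxf2: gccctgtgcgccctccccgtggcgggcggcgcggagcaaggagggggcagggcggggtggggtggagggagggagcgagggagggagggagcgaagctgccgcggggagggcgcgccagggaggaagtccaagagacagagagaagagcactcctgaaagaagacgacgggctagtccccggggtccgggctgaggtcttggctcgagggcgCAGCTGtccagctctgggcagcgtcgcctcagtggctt
Foxd1: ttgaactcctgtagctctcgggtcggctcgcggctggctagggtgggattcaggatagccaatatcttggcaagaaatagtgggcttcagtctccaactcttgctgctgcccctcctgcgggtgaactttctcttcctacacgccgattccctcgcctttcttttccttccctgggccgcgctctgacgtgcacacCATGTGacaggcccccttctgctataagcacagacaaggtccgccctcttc
Foxo1: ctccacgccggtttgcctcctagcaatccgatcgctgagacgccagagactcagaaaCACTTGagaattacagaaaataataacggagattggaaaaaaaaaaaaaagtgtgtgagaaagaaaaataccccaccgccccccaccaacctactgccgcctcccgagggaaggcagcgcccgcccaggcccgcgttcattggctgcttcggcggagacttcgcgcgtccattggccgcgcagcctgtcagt
Foxa2: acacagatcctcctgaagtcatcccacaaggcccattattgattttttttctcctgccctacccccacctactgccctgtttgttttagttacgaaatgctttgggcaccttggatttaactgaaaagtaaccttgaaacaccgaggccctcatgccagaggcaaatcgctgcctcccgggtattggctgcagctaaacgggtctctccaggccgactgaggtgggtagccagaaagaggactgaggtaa
The Foxf2 stretch held 1 E box, CAGCTG, and overlaps an exon of the noncoding transcript 1700018A04Rik. The Foxd1 and Foxo1 stretches held 1 E box each, CATGTG and CACTTG, and the Foxa2 stretch, upstream of the outermost of its 3 RefSeq starts, held none. Of the windows at its other starts, 1 held an E box, CAAATG, and 1 held none. Over the 250 bases upstream of 32851 RefSeq starts, read on both strands, 66.2% held CANNTG, 13.0% CAGCTG and 17.2% CACCTG, and both of these are also forms of CANNTG. None of the 4 stretches held CACCTG or the forkhead motif GTAAACA, which 3.17% of all windows held. A match is a description of letters, not of binding. RefSeq windows were found for 28 of the 43 members. Foxf1, Foxo6 and Foxc2 had none, which limited the choice of genes.

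Library totals ran from 13909230 to 27517374 counts. Levels are in CPM (counts scaled to library size, here after scaling by the trimmed mean of M values). Changes are on the log2 scale, each with its standard error (SE) and the adjusted p of edgeR's quasi-likelihood test, called past the test under 0.05. Tcf3 ranged from 107 to 109 CPM in E12 wild-type cells, 143 to 145 in E12 knockouts, 93.7 to 94.5 in E47 wild-type cells, and stood at 128 in both E47 knockout libraries. A count per gene does not separate the E12 exon from the E47 exon, so it checks no label. The 13 smooth muscle markers summed to 8003 and 8132 CPM in E47 wild-type cells against 3489 to 4632 CPM elsewhere. Most of the sum came from Acta2 (smooth muscle actin, 1626 to 3693 CPM) and Cald1 (1561 to 3584 CPM). The contractile genes Myh11, Tagln and Actg2 were low outside the E47 wild type, at most 8.82, 6.76 and 1.14 CPM, and in E12 knockouts at most 2.82, 1.30 and 0.0965 CPM. Not all listed genes followed. Myocd averaged 11.3 CPM in E12 wild-type and 12.1 in E47 knockout cells, against 4.90 in E47 wild-type cells. Tpm2 averaged 132 and 135 against 119. Smtn was highest in the E47 wild type (mean 310 CPM) but averaged 113 to 128 CPM in the other genotypes. In the E12 knockout 3 markers rose and 8 fell (21.9% and 24.5% of all genes). In the E47 knockout 2 rose and 11 fell (27.7% and 27.5% of all genes). The 3 became 1 without either E12 wild-type library or the first E12 knockout library, and the 2 became 1 without either E47 wild-type library or the first E47 knockout library, and also with DESeq2. The sum of the endothelial markers stood apart in the E47 wild type. The 12 genes summed to 696 and 764 CPM there, to 11.1 and 13.1 in E12 wild-type cells, 5.94 and 6.31 in E12 knockouts and 5.01 and 7.64 in E47 knockouts. In the E47 wild type Pecam1 reached 211 and 194 CPM and Cdh5 174 and 166 CPM, and neither exceeded 2.24 CPM elsewhere, while Cldn5 had no count in any library. All 10 endothelial markers tested were lower in the E47 knockout, and 3 were lower in the E12 knockout (5 with DESeq2 and 6 with no filter on low counts). Mesothelial markers summed to 1554 and 1663 CPM in E12 wild-type cells, 948 and 977 in E12 knockouts, 206 and 222 in E47 wild-type cells and 407 and 420.2 in E47 knockouts. Of the 8 tested, 5 fell and 2 rose in the E12 knockout, and 1 fell and 7 rose in the E47 knockout. The 2 became 1 without the second E12 wild-type library or the first E12 knockout library. The part of these cell type markers in the forkhead differences was not tested. In bulk RNA, fewer cells of a type and less RNA per cell cannot be told apart.

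**Figure D1:**
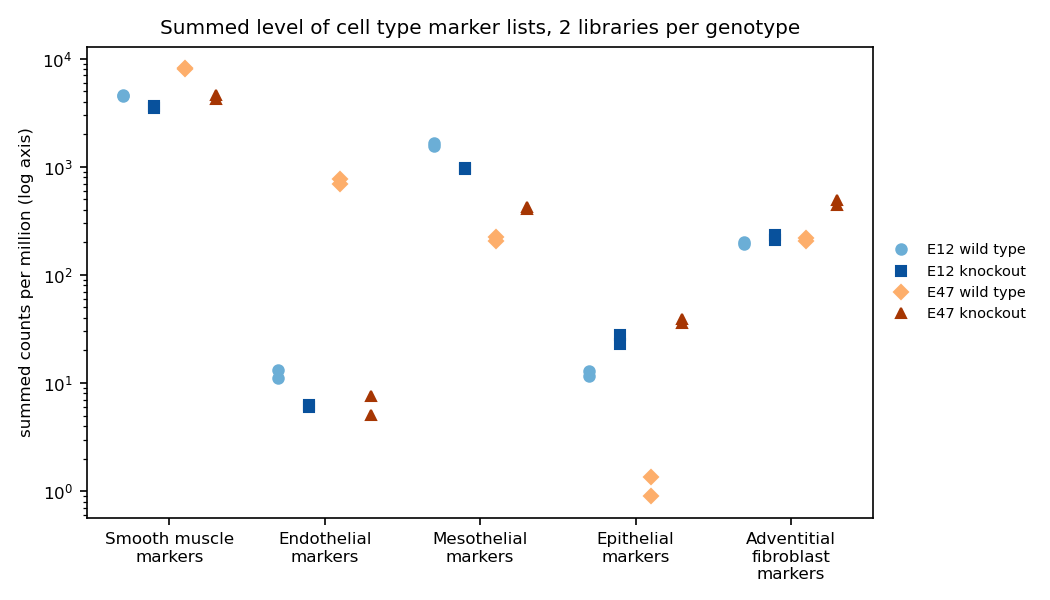
Summed CPM (log axis) of 5 lists of cell type markers, with 2 libraries drawn for each genotype. Endothelial markers lie at 696 and 764 CPM in E47 wild-type cells and at or below 13.1 CPM in the other genotypes.

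Of the 43 forkhead genes, 26 passed the filter on low counts and 17 did not. The filter asked for 0.631 CPM in at least 2 libraries. Of the 26, 19 reached that level in all 8 libraries. Foxd2, Foxp2, Foxl1, Foxj1, Foxq1, Foxf2 and Foxd1 did not, and Foxp2 and Foxj1 reached it in 1 genotype only, so such genes had to differ in order to pass. Of the 17 genes left out, 10 had no count in any library, which allows up to between 0.109 and 0.216 CPM in a library, counting error only. These were Foxb1, Foxd3, Foxd4, Foxe3, Foxi1, Foxi2, Foxi3, Foxn4, Foxr1 and Foxr2. The other 7, Foxa3, Foxb2, Foxe1, Foxh1, Foxl2, Foxn1 and Foxp3, never had more than 6 counts in a library.

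All 26 tested members differed among the 4 genotypes, where 80.8% of the 13992 genes tested did. In the E12 knockout 8 members rose (21.9% of all genes did) and 7 fell (24.5%), so 15 changed (46.4%). In the E47 knockout 12 rose (27.7%) and 10 fell (27.5%), so 22 changed (55.2%). The 26 and the 22 both include Foxp2 and Foxj1, which reached the filter level in 1 genotype only. Changes of more than 2-fold were called upward for 3 members in E12 (3.83% of all genes), Foxf1, Foxf2 and Foxq1, and downward for 5 (8.11%), Foxc2, Foxd1, Foxl1, Foxo6 and Foxs1. In E47 they were called upward for 8 (7.70%), among them Foxa1, Foxa2, Foxd2, Foxf2, Foxj1, Foxo6 and Foxq1, and downward for 5 (7.19%), Foxc2, Foxj3, Foxn2, Foxo1 and Foxp2. The E12 and E47 changes differed from each other for 16 members, 8 in each direction, where 22.9% of all genes were higher, 25.7% lower and 48.6% either. By more than 2-fold, 3 were higher (6.33% of all genes), Foxf1, Foxj3 and Foxn2, and 8 lower (11.3%). The 16 and these 8 include Foxj1, which passed the filter only through the E47 knockout. Members called higher in both knockouts were Foxf1, Foxf2, Foxp4 and Foxq1 (7.50% of all genes), and those called lower in both were Foxc2 and Foxo1 (8.63%). Foxd1, Foxl1 and Foxo6 were among the 4 that fell in the E12 knockout and rose in the E47 knockout (7.92%), and Foxn2 and Foxo4 did the reverse (5.30%). The median change over the 26 was 0.001 in E12 and 0.11 in E47, beside -0.01 and 0.01 over all genes. Sizes were larger in the family: the median absolute change was 0.49 in E12 and 0.98 in E47, beside 0.31 and 0.35 over all genes. Counts and medians here are over genes that passed the filter and describe the family without a set test.

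**Figure D2:**
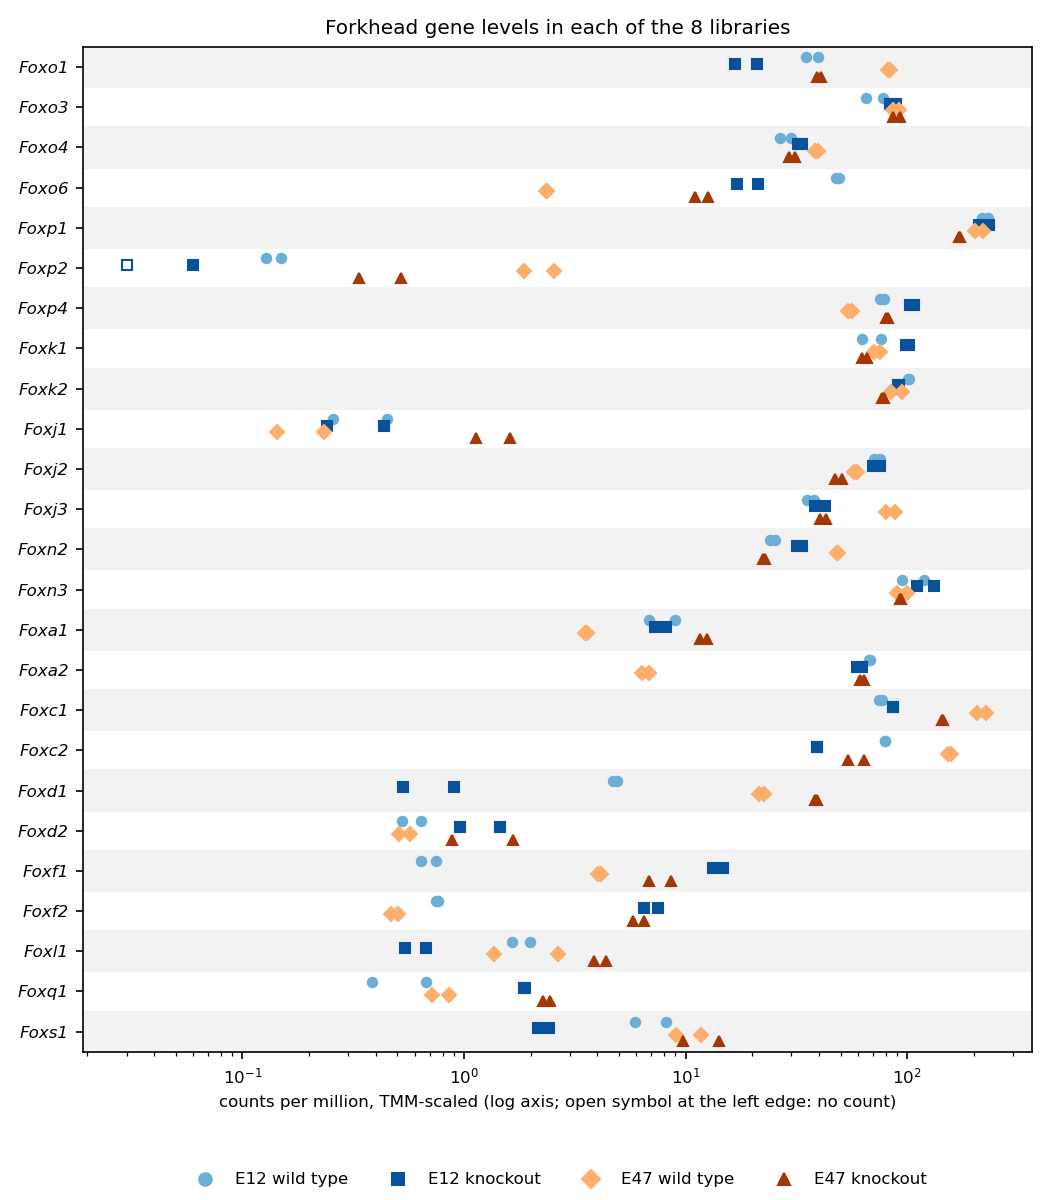
Counts in CPM (log axis) of 25 forkhead genes that passed the filter on low counts, in each of the 8 libraries, by genotype. Foxa2 and Foxo6 lie far lower in the E47 wild type than elsewhere, and Foxf1 and Foxf2 are lowest in the wild types.

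Per transcript length, the make-up of the family differed between genotypes. Levels per length (TPM, which sum to the same total in every library), computed with GENCODE M21 exon lengths, summed to between 788 and 883 TPM over all members, or 0.0788% to 0.0883% of all transcripts. Foxc2 held on average 13.4% of this sum in the E12 wild type, 7.10% in the E12 knockout, 24.3% in the E47 wild type and 9.67% in the E47 knockout. Foxc1 held 5.97%, 7.25%, 15.8% and 11.0% in the same order. Foxa2 held 13.1%, 12.7%, 1.19% and 11.8%. Foxo6 held 8.52% in E12 and 0.384% in E47 wild-type cells. The highest TPM was therefore that of Foxc2 in both wild types (109 and 210 TPM), and that of Foxa2 in both knockouts (both at 102 TPM), where Foxc1 at 94.9 TPM came next in the E47 knockout and Foxp4 at 85.1 TPM in the E12 knockout. In the E12 wild type Foxa2 at 107 TPM came next, close behind Foxc2. In the E47 wild type it was Foxc1 at 137 TPM. These shares and ranks depend on the length used, all exons of a gene joined over its transcripts. That was 13751 bases for Foxp1 (31 transcripts), 2370 for Foxa2 and 2725 for Foxc2. In CPM, which takes no account of length, Foxp1 came first in the E12 wild type, at a mean of 225 against 79.6 for Foxc2 and 67.45 for Foxa2. Foxp1 also came first in the E12 knockout (223 against 60.8 for Foxa2) and in the E47 knockout (172 against 62.4 for Foxa2). In the E47 wild type Foxc1 came first at 217, ahead of Foxp1 at 211 and Foxc2 at 155.

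**Figure D3:**
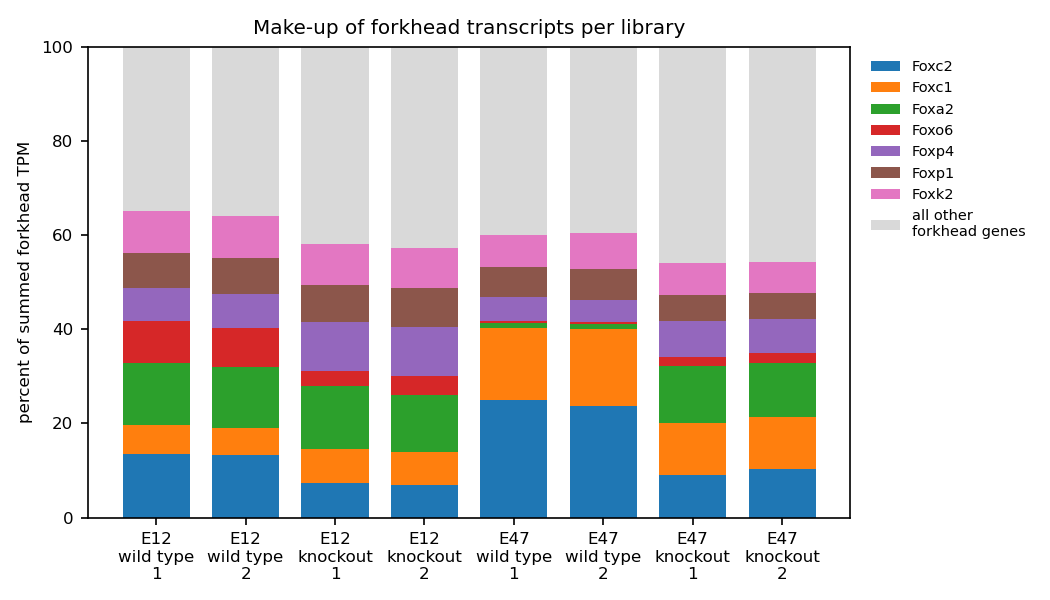
Share of the summed forkhead TPM (percent) taken by 7 named members and by all others, in each library. The Foxc2 and Foxc1 shares are largest in the E47 wild type, at 24.3% and 15.8% on average, where the Foxa2 share is 1.19%.

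Foxf1 and Foxf2, which act in visceral mesenchyme, rose in both knockouts. Foxf2 (chr13:31625816-31631403, plus strand) measured 0.766 and 0.748 CPM in E12 wild-type cells, 6.52 and 7.51 in E12 knockouts, 0.501 and 0.468 in E47 wild-type cells, and 6.50 and 5.82 in E47 knockouts. All 4 knockout libraries lay above all 4 wild-type libraries. The log2 change was 3.19 in E12 (SE 0.305, adjusted p = 6.8e-08) and 3.67 in E47 (SE 0.327, adjusted p = 1.5e-08), and the test of their difference gave -0.47 (SE 0.447, adjusted p = 0.40). Foxf1 (chr8:121084386-121088144, plus strand) measured 0.638 and 0.748 CPM in E12 wild-type cells, 14.7 and 13.3 in E12 knockouts, 4.16 and 4.02 in E47 wild-type cells, and 8.58 and 6.82 in E47 knockouts. Groups did not overlap. Its rise was larger with E12 loss (4.33, SE 0.324, adjusted p = 8.7e-10) than with E47 loss (0.93, SE 0.163, adjusted p = 0.00019), with a difference of 3.40 (SE 0.363, adjusted p = 4.0e-07). Endothelial and smooth muscle marker sums were lower in both knockouts than in their wild types, and their part in these rises was not tested.

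Both genes sit in clusters with other forkhead genes, and neighbours did not move as a block. On chromosome 8, Foxf1 lies 28.0 kb before Foxc2 (chr8:121116171-121118895), which lies 9.0 kb before Foxl1 (chr8:121127940-121130644), all on the plus strand. Foxc2, a regulator of arterial, lymphatic and mural development, measured 79.5 and 79.7 CPM in E12 wild-type cells, 39.3 and 39.0 in E12 knockouts, 157 and 153 in E47 wild-type cells, and 54.1 and 63.6 in E47 knockouts. It thus fell where Foxf1 rose, by 1.02 on the log2 scale in E12 (SE 0.0819, adjusted p = 1.1e-07) and by 1.40 in E47 (SE 0.0778, adjusted p = 1.2e-09). The difference of 0.38 (SE 0.113, adjusted p = 0.012) lost its call without the first E47 knockout library (0.26, adjusted p = 0.079). Foxl1, a gut mesenchyme gene downstream of Hedgehog signalling, measured 1.98 and 1.64 CPM in E12 wild-type cells, 0.676 and 0.541 in E12 knockouts, 1.36 and 2.65 in E47 wild-type cells, and 4.37 and 3.88 in E47 knockouts. It fell with E12 loss (-1.56, SE 0.422, adjusted p = 0.0052) and rose with E47 loss (0.94, SE 0.263, adjusted p = 0.0063). The rise missed the threshold without the first E47 wild-type library (0.64, adjusted p = 0.050) and without the first E47 knockout library (0.86, adjusted p = 0.056). The difference between its changes was -2.50 (SE 0.497, adjusted p = 0.00054).

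The chromosome 13 cluster showed the same mixture. Foxq1 (chr13:31556134-31560976) lies 64.8 kb before Foxf2, and Foxf2 lies 175.2 kb before Foxc1 (chr13:31806633-31812476), all on the plus strand. Foxq1 measured 0.383 and 0.673 CPM in E12 wild-type cells, 1.88 and 1.86 in E12 knockouts, 0.716 and 0.858 in E47 wild-type cells, and 2.44 and 2.27 in E47 knockouts. It rose in both, like Foxf2, by 1.84 (SE 0.402, adjusted p = 0.00073) and 1.55 (SE 0.31, adjusted p = 0.00045). Its counts are low and uncertain. On the other strand A530084C06Rik, which had no count in any library, overlaps 66.1% of the Foxq1 exon length. The part of this overlap in the Foxq1 counts was not tested. Foxc1, which acts with Foxc2 in vascular and mesenchymal development, measured 77.1 and 74.7 CPM in E12 wild-type cells, 85.8 and 85.9 in E12 knockouts, 207 and 228 in E47 wild-type cells, and 143 and 145 in E47 knockouts. E47 loss went with a fall of 0.60 on the log2 scale (change -0.60, SE 0.0675, adjusted p = 3.3e-06). In E12 the change was 0.18 (SE 0.0712, adjusted p = 0.053), which passed with a filter of 1 CPM in 2 libraries (0.18, adjusted p = 0.047). The E47 wild type, with its endothelial markers, was above all 6 other libraries for both Foxc1 and Foxc2, as was the case for 22.6% of all genes. The endothelial sum also fell between the E12 groups, and its part in the Foxc1 and Foxc2 differences was not tested.

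**Figure D4:**
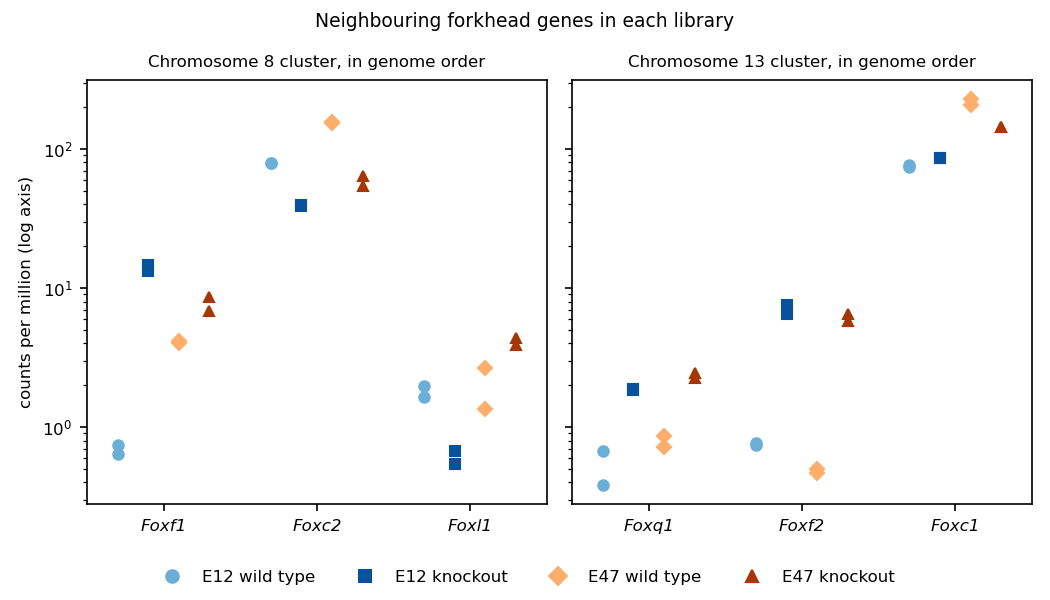
Counts in CPM (log axis) in each library for the 3 forkhead genes of the chromosome 8 cluster and the 3 of the chromosome 13 cluster, in genome order. Foxf1, Foxf2 and Foxq1 are higher in both knockouts than in their wild types, while their neighbour Foxc2 is lower.

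Other transcripts beside these clusters were measured too. Fendrr, a long noncoding RNA that starts 1275 bp from Foxf1 on the opposite strand, had 0 and 1 counts in E12 wild-type cells, 66 and 46 in E12 knockouts (3.19 and 2.76 CPM), 6 and 10 in E47 wild-type cells and 9 and 11 in E47 knockouts. Mthfsd, between Foxf1 and Foxc2, ran from 24.2 to 29.1 CPM over all libraries. Gmds, 7102 bp beyond Foxc1, fell with E12 loss (-0.47, adjusted p = 0.00092). In E47 it rose by 0.33 (adjusted p = 0.0078), a call lost without the second E47 wild-type library (0.26, adjusted p = 0.11) and without the second of the E47 knockout (0.23, 0.092). The list of 19 such transcripts had 11 tested, of which 4 rose and 2 fell in E12 and 3 rose and 3 fell in E47. The 4 became 2 with DESeq2 and without the second E12 wild-type or the first E12 knockout library, and the 3 lower became 1 without the second E47 wild-type or the first E47 knockout library. Pifo, Eif4a1, Maml2 and Lfng turned out to lie far from any member (Lfng, the nearest of these, 1785951 bp away), so it is not read as a list.

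Foxd1, known from the stroma of the developing kidney, had the widest range between knockouts. It measured 4.91 and 4.71 CPM in E12 wild-type cells, 0.531 and 0.901 in E12 knockouts, 21.4 and 22.5 in E47 wild-type cells, and 39.3 and 38.2 in E47 knockouts. No groups overlapped, and levels climbed from E12 knockouts through both wild types, E12 first, to E47 knockouts. It fell by 2.78 with E12 loss (SE 0.278, adjusted p = 2.2e-07) and rose by 0.82 with E47 loss (SE 0.0891, adjusted p = 2.1e-06), and the changes differed by -3.59 (SE 0.292, adjusted p = 2.1e-08). Between the knockouts the gap was -5.78 (SE 0.259, adjusted p = 6.0e-13). Foxd2, a related gene, measured 0.638 and 0.523 CPM in E12 wild-type cells, 1.45 and 0.961 in E12 knockouts, 0.573 and 0.507 in E47 wild-type cells, and 0.884 and 1.67 in E47 knockouts. Its E47 change of 1.21 (SE 0.44, adjusted p = 0.025) passed, and its E12 change of 1.06 (adjusted p = 0.063) did not. The E47 call was lost with DESeq2 (1.22, adjusted p = 0.095), without the first or second E47 wild-type library (1.28 and 1.10, adjusted p = 0.061 and 0.17) and without the second E47 knockout library (0.73, adjusted p = 0.27).

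Foxs1, found in pericytes and sensory neurons, fell with E12 loss. It measured 8.17 and 5.91 CPM in E12 wild-type cells, 2.41 and 2.16 in E12 knockouts, 11.8 and 9.01 in E47 wild-type cells, and 9.77 and 14.2 in E47 knockouts. The E12 groups did not overlap and the E47 groups did. Its change was -1.62 in E12 (SE 0.273, adjusted p = 0.00013) and 0.22 in E47 (adjusted p = 0.33), with a difference of -1.84 (SE 0.328, adjusted p = 0.00025). Of the 7 pericyte markers tested, 1 rose and 4 fell in the E12 knockout (21.9% and 24.5% of all genes). In the E47 knockout 1 rose and 3 fell (27.7% and 27.5% of all genes), with more lower under some alternatives. The list of 8 summed to 988 and 1124 CPM in E12 wild-type cells and 738 and 770.2 in E12 knockouts. It summed to 1694 and 1804 CPM in E47 wild-type cells and 1437 and 1566 in E47 knockouts. The sum was thus lower in both knockouts, while Foxs1 was called lower in E12 only. The part of this list in the Foxs1 fall was not tested.

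Foxa1 and Foxa2, best known outside the vessel wall, rose in the E47 knockout. Foxa2 (chr2:148042877-148046969, minus strand) measured 67.7 and 67.2 CPM in E12 wild-type cells, 62.6 and 59.0 in E12 knockouts, 6.80 and 6.36 in E47 wild-type cells, and 63.6 and 61.3 in E47 knockouts. It was near the same level in 3 genotypes and 9.55-fold higher in the E47 knockout than in its wild type (log2 change 3.26, SE 0.0961, adjusted p = 4.7e-13). Its E12 change was -0.15 (SE 0.0704, adjusted p = 0.10), and the knockouts were -0.04 apart (SE 0.0701, adjusted p = 0.68). Foxa1, a second pioneer factor of this group, measured 8.93 and 6.80 CPM in E12 wild-type cells, 7.24 and 8.17 in E12 knockouts, 3.58 and 3.51 in E47 wild-type cells, and 11.6 and 12.4 in E47 knockouts. It likewise rose with E47 loss (1.76, SE 0.164, adjusted p = 2.6e-07) and had an E12 change of -0.05 (SE 0.153, adjusted p = 0.83).

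Among epithelial markers, Cdh1 (E-cadherin) reached 0.430 and 0.234 CPM in E47 wild-type cells, 34.2 and 38.4 in E47 knockouts and 10.3 to 19.7 in the E12 lines. Epcam had a single count over all libraries and Esrp1 none. The 9 epithelial markers summed to 0.897 and 1.36 CPM in E47 wild-type cells, 35.6 and 39.5 in E47 knockouts, 11.6 and 12.9 in E12 wild-type cells and 22.8 and 27.7 in E12 knockouts. Of the 3 tested, 2 rose and 1 fell in each knockout (21.9% and 24.5% of all genes in E12, 27.7% and 27.5% in E47). The fall in E47 was lost without the first E47 knockout library, and 0 fell in either knockout with a filter of 1 CPM in 2 libraries. Their part, and that of the mesothelial markers, in the rise of Foxa1 and Foxa2 was not tested.

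Foxj1, the regulator of motile cilia, measured 0.255 and 0.449 CPM in E12 wild-type cells, 0.434 and 0.240 in E12 knockouts, 0.143 and 0.234 in E47 wild-type cells, and 1.61 and 1.14 in E47 knockouts. It was low everywhere and passed the filter only through the E47 knockout, so neither its E47 test nor the difference below gives separate support. It rose with E47 loss by 2.75 (SE 0.573, adjusted p = 0.0002), from 8 counts over both wild-type libraries. The difference from its E12 change of 0.01 was -2.74 (SE 0.848, adjusted p = 0.013), a call lost without the second E12 wild-type library (-2.32, adjusted p = 0.11).

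The 4 FOXO genes each followed a course of their own. Foxo1 (chr3:52268336-52353221, plus strand), the member most studied in insulin signalling and in vessels, measured 35.1 and 39.7 CPM in E12 wild-type cells, 16.7 and 21.1 in E12 knockouts, 83.3 and 81.8 in E47 wild-type cells, and 40.8 and 39.0 in E47 knockouts. Each knockout lay below its wild type, and the E12 wild type overlapped the E47 knockout. The falls were alike in size, -0.99 in E12 (SE 0.105, adjusted p = 2.1e-06) and -1.05 in E47 (SE 0.0915, adjusted p = 1.9e-07), and the difference was 0.06 (SE 0.139, adjusted p = 0.77). Endothelial marker sums were lower in both knockouts as well, and their part in the Foxo1 falls was not tested. Foxo6 (chr4:120267079-120287349, minus strand), a member best known from brain, measured 49.2 and 47.8 CPM in E12 wild-type cells, 17.0 and 21.2 in E12 knockouts, 2.36 and 2.34 in E47 wild-type cells, and 11.0 and 12.6 in E47 knockouts. It was 20.6-fold higher in the E12 than in the E47 wild type, and the knockouts lay between them. It fell by 1.35 with E12 loss (SE 0.102, adjusted p = 5.6e-08) and rose by 2.32 with E47 loss (SE 0.183, adjusted p = 2.3e-08).

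Foxo3 and Foxo4 differed by less. Foxo3 measured 65.5 and 78.0 CPM in E12 wild-type cells, 83.5 and 89.2 in E12 knockouts, 85.9 and 91.7 in E47 wild-type cells, and 86.6 and 92.3 in E47 knockouts. Its E12 rise of 0.27 (SE 0.0863, adjusted p = 0.019) was lost without the first E12 wild-type library (0.14, adjusted p = 0.23) or the second E12 knockout library (0.23, adjusted p = 0.11), and in E47 the change was 0.01 (adjusted p = 0.95). Foxo4 measured 29.7 and 26.5 CPM in E12 wild-type cells, 33.4 and 32.3 in E12 knockouts, 38.3 and 39.5 in E47 wild-type cells, and 29.2 and 31.1 in E47 knockouts. It fell with E47 loss (-0.37, SE 0.0811, adjusted p = 0.0013). The E12 rise of 0.22 (SE 0.0844, adjusted p = 0.044) was marginal: it was lost without the second E12 wild-type library (0.14, adjusted p = 0.29), the first or second E12 knockout library (0.20 and 0.25, adjusted p = 0.16 and 0.073) or either E47 wild-type library (0.22, adjusted p = 0.060 and 0.059). With DESeq2 it was 0.22 (adjusted p = 0.16). The changes differed by 0.59 (SE 0.117, adjusted p = 0.00071).

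Genes that control FOXO proteins, and genes known as FOXO targets, moved in both directions, as did all genes tested. Of all genes, 21.9% rose and 24.5% fell with E12 loss, and 27.7% rose and 27.5% fell with E47 loss. The counts below describe the lists beside these shares, without a set test. The target list mixes induced genes with repressed ones such as Ccnd1, so its counts are not counts of genes switched on. Of 36 regulators, all tested, 8 rose and 8 fell in the E12 knockout and 4 rose and 16 fell in the E47 knockout (medians -0.04 and -0.18). The E12 counts became 5 lower without the first E12 knockout library and 5 higher without the second. Pik3cb, a catalytic subunit of PI3 kinase, fell in both (-0.96 and -0.42), Prkaa2, a catalytic subunit of AMP-activated kinase, fell with E12 loss (-2.11), and Sgk3, another FOXO kinase, fell with E47 loss (-1.08). Of 45 target genes 39 were tested, with 12 higher and 10 lower in E12 and 12 higher and 11 lower in E47 (medians 0.08 and -0.01). Irs2, an insulin receptor adaptor, rose with E12 loss from 11.4 and 14.3 to 26.4 and 31.4 CPM (1.17, adjusted p = 1.2e-06). Bnip3, a mitophagy receptor gene, also rose (1.17, adjusted p = 2.0e-06), and Cited2, a transcriptional coregulator, fell (-0.95, adjusted p = 7.8e-08). Ccnd1 (cyclin D1), which FOXO proteins repress, fell with E12 loss (-0.88) and rose with E47 loss (0.98). Klf2, an endothelial flow-response gene, fell with E47 loss from 53.7 and 48.1 to 8.99 and 7.82 CPM (-2.58, adjusted p = 3.0e-11), alongside the endothelial markers, and their part in this was not tested. Angpt2, another gene of the target list, rose with E47 loss from 20.5 and 20.1 to 64.3 and 74.5 CPM (1.77, adjusted p = 3.4e-10).

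Foxp1, a broadly expressed repressor, measured 218 and 232 CPM in E12 wild-type cells, 212 and 234 in E12 knockouts, 203 and 219 in E47 wild-type cells, and 171 and 173 in E47 knockouts. It fell with E47 loss (-0.29, SE 0.0719, adjusted p = 0.0030) and was at -0.02 in E12 (adjusted p = 0.87). The difference of 0.28 (SE 0.102, adjusted p = 0.035) was lost without the first E12 wild-type library (0.23, adjusted p = 0.10), the second E12 knockout library (0.20, 0.17), the second of the E47 wild type (0.22, 0.16) or the first or second E47 knockout library (0.27 and 0.28, adjusted p = 0.095 and 0.078). Foxp4 measured 75.7 and 78.9 CPM in E12 wild-type cells, 102 and 108 in E12 knockouts, 56.3 and 53.8 in E47 wild-type cells, and 82.0 and 80.4 in E47 knockouts. It rose in both, by 0.44 (SE 0.0691, adjusted p = 9.7e-05) and 0.56 (SE 0.0704, adjusted p = 8.9e-06), without overlap between groups. Foxp2 measured 0.128 and 0.149 CPM in E12 wild-type cells, 0 and 0.0601 in E12 knockouts, 1.86 and 2.53 in E47 wild-type cells, and 0.520 and 0.334 in E47 knockouts. It passed the filter only through the E47 wild type, so its E47 test gives no separate support. It fell with E47 loss (-2.35, SE 0.436, adjusted p = 0.00011). The E12 knockout had 1 count over both libraries, so no fold is given there.

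Foxk1, a regulator of glycolysis and autophagy genes, measured 62.5 and 76.1 CPM in E12 wild-type cells, 98.4 and 101 in E12 knockouts, 70.7 and 75.3 in E47 wild-type cells, and 65.8 and 62.4 in E47 knockouts. It rose with E12 loss (0.53, SE 0.0869, adjusted p = 0.00016), and the difference from E47 was 0.72 (SE 0.123, adjusted p = 0.00022). Its E47 change of -0.19 (adjusted p = 0.079) passed without the first or the second E12 wild-type library (-0.19, adjusted p = 0.028 and 0.027). Foxk2, its paralogue, measured 100.4 and 102 CPM in E12 wild-type cells, 90.7 and 91.8 in E12 knockouts, 84.5 and 94.2 in E47 wild-type cells, and 78.3 and 76.8 in E47 knockouts. Its E12 change was -0.15 (adjusted p = 0.10). Its E47 fall (-0.21, SE 0.0719, adjusted p = 0.023) was lost without the second E47 wild-type library (-0.12, adjusted p = 0.30) and without the first or second E47 knockout library (-0.21 and -0.19, adjusted p = 0.085 and 0.12). Shares over all genes were 21.9% higher and 24.5% lower in the E12 knockout, and 27.7% and 27.5% in the E47 knockout. Of 18 partners of FOXK proteins, 17 were tested. In the E12 knockout 10 rose (6 without the second E12 knockout library) and 0 fell by edgeR, 0 fell by DESeq2 and 0 were lower at an unadjusted p under 0.05, and in the E47 knockout 4 rose (2 without the second E47 wild-type library) and 5 fell. Ogt, the O-GlcNAc transferase of the BAP1 complex, rose by 0.58 with E12 loss (adjusted p = 1.2e-05), and Asxl2, a BAP1 cofactor, rose by 0.53 with E12 loss and fell by 0.53 with E47 loss. Kdm1b, a histone demethylase, rose in both (0.45 and 0.91).

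Foxn2 measured 23.9 and 25.3 CPM in E12 wild-type cells, 31.8 and 33.4 in E12 knockouts, 48.1 and 48.6 in E47 wild-type cells, and 22.4 and 22.9 in E47 knockouts. It rose with E12 loss (0.41, SE 0.0804, adjusted p = 0.00075) and fell with E47 loss (-1.09, SE 0.0774, adjusted p = 1.7e-08), a difference of 1.50 (SE 0.112, adjusted p = 4.2e-08). Foxn3, a repressor, measured 94.6 and 119 CPM in E12 wild-type cells, 111 and 132 in E12 knockouts, 90.3 and 99.6 in E47 wild-type cells, and 92.8 and 93.9 in E47 knockouts. Its libraries spread widely within the E12 groups and neither knockout change passed (0.18 and -0.03, adjusted p = 0.16 and 0.84). The E12 change passed without the second E12 wild-type library (0.36, adjusted p = 0.0047) or the first E12 knockout library (0.31, adjusted p = 0.044).

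Foxj2 and Foxj3 are paralogues with broad expression. Foxj3 measured 38.1 and 35.1 CPM in E12 wild-type cells, 38.4 and 42.4 in E12 knockouts, 80.1 and 87.7 in E47 wild-type cells, and 43.0 and 40.2 in E47 knockouts. The E47 wild type stood above the other genotypes, and the fall with E47 loss was -1.01 (SE 0.081, adjusted p = 7.2e-08), beside an E12 change of 0.14 (adjusted p = 0.21). Foxj2 measured 71.0 and 75.3 CPM in E12 wild-type cells, 70.0 and 75.6 in E12 knockouts, 57.6 and 59.4 in E47 wild-type cells, and 47.4 and 50.7 in E47 knockouts. Its fall with E47 loss (-0.26, SE 0.076, adjusted p = 0.0096) was lost without the second E47 wild-type library (-0.23, adjusted p = 0.078) or the first E47 knockout library (-0.20, adjusted p = 0.11).

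**Figure D5:**
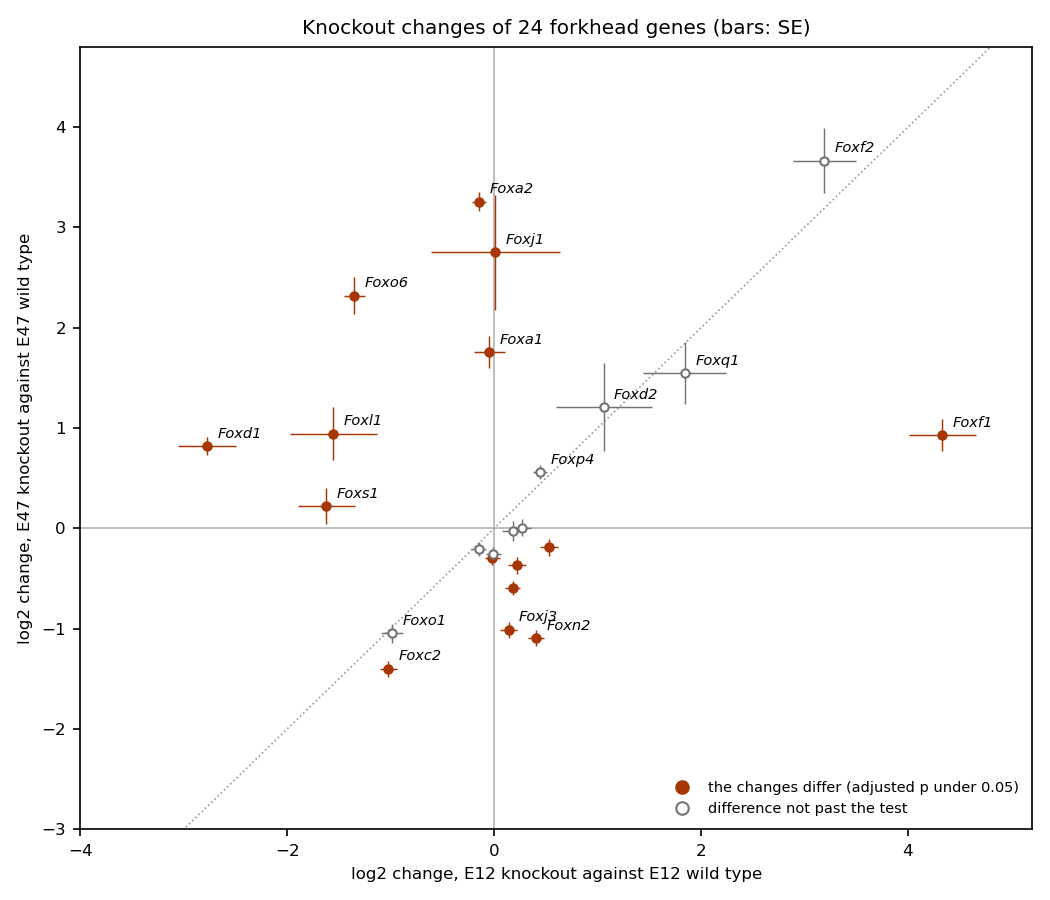
Log2 change in the E47 knockout (y axis) against that in the E12 knockout (x axis) for 24 tested forkhead genes, Foxp2 left out for its low counts, with bars of 1 SE and a dotted line of equal change. Filled points mark genes whose changes differ (adjusted p under 0.05), with Foxa2 and Foxo6 above the line and Foxf1 below it, while Foxf2, Foxq1 and Foxo1 lie near it.

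The wild types differed from each other for 17 of the 26 members (55.4% of all genes). Relative to E47 wild-type cells, those of E12 were higher in 6 (27.8%) and lower in 11 (27.6%). More than 2-fold gaps were 4 higher (8.43%), among them Foxa1, Foxa2 and Foxo6, and 6 lower (9.41%), Foxc1, Foxd1, Foxf1, Foxj3, Foxo1 and Foxp2. The 17, the 11 and these last 6 include Foxp2, which passed the filter only through the E47 wild type. Its test here gives no separate support. Among the 6 higher were Foxa1, Foxa2, Foxj2, Foxo6 and Foxp4, with Foxo6 at 4.37 (SE 0.173) and Foxa2 at 3.37 (SE 0.0963). Lower were Foxc1, Foxc2, Foxd1, Foxf1, Foxj3, Foxn2, Foxo1, Foxo3, Foxo4, Foxp2 and Foxs1, with Foxf1 at -2.55 (SE 0.336) and Foxd1 at -2.19 (SE 0.135). The Foxo3 call was lost without the first E12 wild-type library (-0.19, adjusted p = 0.097) or the second E47 wild-type library (-0.26, adjusted p = 0.070). That of Foxs1 was lost without the second E12 wild-type library (-0.31, adjusted p = 0.23) or the first E47 wild-type library (-0.34, adjusted p = 0.22). These contrasts share the wild-type libraries with the knockout contrasts, so the lists are set side by side and their overlap is not read as a result. The E47 wild-type libraries lay above all 6 others for 7 members (22.6% of all genes) and below all 6 others for 7 (22.0%). For E12 wild-type libraries these counts were 3 above (10.4%) and 5 below (9.38%), for E12 knockouts 4 (19.4%) and 6 (19.1%), and for E47 knockouts 6 (10.8%) and 4 (10.4%). The 7 above in the E47 wild type include Foxp2, which passed the filter only through that genotype. Likewise the 6 above in the E47 knockout include Foxj1, which passed only through the E47 knockout. The endothelial markers named above moved in the same contrast, and their part was not tested.

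Between the knockouts, 19 members differed (52.9% of all genes), with E12 knockouts higher in 9 (25.9%) and lower in 10 (27.0%). The highest of the 9 was Foxf1 at 0.85 (SE 0.136), so none was over 2-fold higher (4.53% of all genes). Called more than 2-fold lower were 7 (10.1%), among them Foxd1, Foxj1, Foxl1, Foxo1 and Foxs1. The 19, the 10 and the 7 include Foxj1, which passed the filter only through the E47 knockout, so its test gives no separate support. They also include Foxp2, which had 1 count over both E12 knockout libraries, so no fold is given for it. Foxl1 was lower by 2.74 (change -2.74, SE 0.385, adjusted p = 6.9e-06) and Foxs1 by 2.36 (change -2.36, SE 0.257, adjusted p = 8.5e-07). Calls that leaving out a library ended were those of Foxk2 (0.23, adjusted p = 0.013), which was lost without the second E12 knockout library (0.23, 0.055) or the second of the E47 knockout (0.23, 0.066), and Foxn3 (0.38, adjusted p = 0.0065), lost without the second E12 knockout library (0.26, 0.083).

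Lists of genes tied to the mesenchymal and vascular forkhead factors moved unevenly. Beside them, 21.9% of all genes rose and 24.5% fell in the E12 knockout, and 27.7% rose and 27.5% fell in the E47 knockout. Of 24 Hedgehog pathway genes 18 were tested, with 7 higher and 7 lower in the E12 knockout and 4 higher and 7 lower in the E47 knockout. The 7 higher became 4 without the second E12 knockout library and 4 with DESeq2. Ptch1, the Hedgehog receptor and a readout of the pathway, measured 31.5 and 37.4 CPM in E12 wild-type cells, 16.5 and 21.0 in E12 knockouts, 247 and 250 in E47 wild-type cells, and 36.6 and 36.5 in E47 knockouts. It thus fell in both knockouts (-0.88 and -2.77), in which Foxf1 and Foxf2 rose. Boc, a Hedgehog co-receptor, fell in both as well (-1.71 and -1.84). Gas1, another co-receptor, fell with E12 loss (-5.30, adjusted p = 3.3e-10). In E47 its mean went the other way, from 0.807 CPM in wild-type to 3.80 CPM in knockout cells. Cdon, a further co-receptor, also fell with E12 loss (-0.68), and its E47 mean was higher in knockout than in wild-type cells (64.4 against 37.6 CPM). Dhh, a Hedgehog ligand, stood at 6.52 and 6.32 CPM in E47 wild-type cells and no higher than 1.21 elsewhere. Of 36 genes associated with FOXC and FOXF factors 31 were tested, with 6 higher and 17 lower in E12 and 11 higher and 14 lower in E47 (medians -0.37 and -0.04). Bmp4, a mesenchymal growth factor, fell in both (-1.66 and -1.76), Tnxb, a matrix glycoprotein gene, rose in both (2.77 and 2.25), and Tbx18, a mural cell factor, fell in both (-2.13 and -0.38). Pdgfra, also among the adventitial markers, rose with E12 loss (3.02, adjusted p = 1.8e-08) and fell with E47 loss (-0.71). Of 19 FOXP partner factors, all tested, 7 rose and 3 fell in E12 and 7 rose and 8 fell in E47, the last count becoming 4 without the first E47 knockout library. Nfatc1 rose in both (0.78 and 0.97) and Nfatc4, another NFAT factor, fell in both (-2.75 and -2.64).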

How the data were processed

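The data were 8 libraries of unstranded polyA RNA from cultured aortic smooth muscle cells. The authors deposited whole-number counts per gene symbol, not normalized, 1 column per library. FastQC, HISAT and featureCounts, with GRCm38 and mm10 as builds, stand in the submitters' processing notes; no version, setting or annotation is stated in what was used here. The library kit did not keep strand, so reads of a gene and of its antisense partner are not separable.

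Counts were fitted with edgeR 4.0.16 in R 4.3.3, with edgeR's filter on low counts for the 4 groups (13992 genes tested), TMM scaling, a 4-group model over all 8 libraries with 4 residual degrees of freedom, and quasi-likelihood F tests. Adjusted p-values are Benjamini-Hochberg values over every gene tested, with a threshold of 0.05. The 5 contrasts were each knockout against its wild type, the difference of these changes, wild type against wild type and knockout against knockout, besides a test of any difference among the 4 genotypes. The script was tested on simulated data. TPM used exon lengths of GENCODE M21, joined over all transcripts of a gene and matched for 53362 symbols. Entries with a symbol turned into a date (26 rows, at most 0.198% of counts) stayed in the totals.

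Members and gene lists were chosen with earlier results of these data known. Tested members were named, with up to 4 genes per list with the lowest p in a knockout contrast. A member and a list gene are counted but not reported here. The lists were FOXO activity regulators, FOXO targets, Hedgehog pathway, FOXK partners, FOXP partners, genes associated with FOXC and FOXF, transcripts beside forkhead genes, and markers of smooth muscle, endothelial, adventitial fibroblast, pericyte, mesothelial, epithelial, macrophage, lymphocyte, Schwann and adipocyte cells. Alternatives were DESeq2 1.42.0, other scalings and filters, fits of 2 groups and leaving out each library. With no molecular identifiers, limits from counts cover counting error only.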

Additional observations from a re-analysis of the deposited data

Results flagged for a closer look

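For 16 of the 26 tested forkhead genes, the change with E12 loss differed from the change with E47 loss by edgeR's test of the difference itself (adjusted p from 6.6e-12 to 0.035), where 48.6% of all genes did. Each value is the E12 log2 change minus the E47 log2 change. The E12 change was the lower of the pair for 8 genes, among them Foxa2 (-3.40), Foxo6 (-3.67), Foxd1 (-3.60), Foxa1 (-1.80), Foxs1 (-1.84), Foxl1 (-2.50) and Foxj1 (-2.74). It was the higher for Foxn2 (1.50), Foxf1 (3.40), Foxj3 (1.15), Foxc1 (0.77), Foxk1 (0.72), Foxo4 (0.59), Foxc2 (0.38) and Foxp1 (0.28). The Foxc2, Foxj1 and Foxp1 calls each depended on single libraries, with the values given above. Foxj1 also passed the filter on low counts only through the E47 knockout, so its test gives no separate support. Groups of 2 libraries were too small to look for single libraries that stand apart.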

How the results depend on the processing

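No paired analysis was possible because the labels give no replicate number that groups share. No forkhead count per contrast moved by more than 1.5 times under any alternative run. Leaving out each library gave 25 to 26 members that differed among genotypes, 6 to 8 higher and 7 lower in the E12 knockout, and 10 to 12 higher and 8 to 11 lower in the E47 knockout. The difference of the changes was called higher for 6 to 11 and lower for 7 to 8. The wild-type contrast gave 6 to 7 higher and 10 to 11 lower, and the knockout contrast 7 to 9 higher and 9 to 10 lower. Of 88 called results of single members in a contrast, 13 lost the call under at least 1 alternative and none reversed. Of 39 not called, 10 were called under some alternative. DESeq2 ended the calls of Foxo4 in E12 and Foxd2 in E47, and that of Foxs1 between the wild types (-0.55, adjusted p = 0.052). Upper-quartile scaling ended those of Foxo4 in E12 (0.21, adjusted p = 0.060), Foxk2 in E47 (-0.14, 0.11), the Foxp1 difference (0.20, 0.10) and Foxs1 between the wild types (-0.48, 0.059). It also moved the split of all genes in E47 to 4485 higher and 3281 lower, from 3876 and 3853. An alternative added after seeing the data left out both libraries of E47 wild-type cells, and there the E12 call of Foxo4 was lost (0.22, 0.060). The causes were not tested. With 2 libraries a group and low counts for Foxp2, Foxj1, Foxd2, Foxq1 and Foxl1, small changes of these genes were not detectable.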

Other observations

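Marker lists not described above were low or mixed. Of all genes tested, 21.9% rose and 24.5% fell in the E12 knockout, and 27.7% rose and 27.5% fell in the E47 knockout. No lymphocyte marker passed the filter on low counts, and the 8 markers summed to at most 0.598 CPM in a library. Macrophage markers summed to between 11.4 and 16.4 CPM, with C1qa, C1qb and Itgam at 0 in all libraries. Of the 4 tested, 1 rose and 3 fell in the E12 knockout and 1 rose and 2 fell in the E47 knockout, counts that rest on single libraries: in E12, 0 were called without the first wild-type library and 1 fell without the second knockout library, and in E47, 1 fell without the second wild-type library. Of 3 adipocyte markers tested, 3 rose in the E12 knockout, and the list summed to 33.0 and 33.5 CPM there and at most 15.1 CPM elsewhere. Of 4 Schwann cell markers tested, 2 rose and 1 fell in the E12 knockout and 3 rose in the E47 knockout. That list summed to 5.42 and 5.87 CPM in E47 wild-type cells and at least 19.6 CPM elsewhere. Of 8 adventitial fibroblast markers tested, 4 rose (2 with DESeq2 or when only E12 libraries were fitted) and 2 fell in E12, and 5 rose and 2 fell (1 without the first E47 knockout library) in E47. The list summed to 440.1 and 498 CPM in the E47 knockout and at most 236 CPM elsewhere.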
